A study of Mus musculus with 28 samples.

Results

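The genes described here are 8 genes of Schwann cells and of the myelin sheath, Mbp, Pmp22, Mag, Prx, Sox10, S100b, Ngfr and Gfra3, out of 29068 gene symbols in the count table of a mouse skin wound time course. They were taken by name, and each was followed in 28 libraries of total RNA from the wound site, 4 at each of 7 labelled days (Day0, Day3, Day5, Day7, Day10, Day12 and Day14). All libraries came from C57BL/6J mice that carry the normal gene MLKL (MLKL+/+) and that healed without any agent, and the label of every day is natural wound healing. A round punch wound was made through the back skin down to the fascia, and the sampled tissue was the whole wound site with its scab and its epithelial margins. The mice were 8 weeks old and of both sexes, and the sex behind a single library is not given. Day0 is the control in the labels, while the study's figure captions give day 1 as the day of injury. The Day0 libraries are therefore not named here as skin that was never cut. The design text speaks of 5 repeats a day, and 4 libraries a day were analysed. The labels do not say which mouse gave which library, so that the p-values below measure the spread between libraries.

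Schwann cells are the glia of peripheral nerves. Some of them wrap large axons in myelin, a stack of membrane held together by myelin basic protein and by membrane proteins such as the one that Pmp22 encodes, whereas others hold bundles of thin axons without myelin. After a nerve is cut, Schwann cells beyond the cut stop making myelin, take up a repair state and guide the axons that grow back. Skin holds both kinds in its nerve bundles and around its hair follicles. In bulk tissue, fewer cells of a type and less RNA per cell cannot be told apart.

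The 8 genes fall into 4 roles. Mbp, Pmp22, Mag and Prx encode parts of the myelin sheath, Sox10 encodes the transcription factor that Schwann cells need at every stage, Ngfr and Gfra3 encode receptors of the neurotrophin and GDNF systems, and S100b encodes a calcium-binding protein long used to mark Schwann cells. In GRCm38, the build that mm10 names, Pmp22 lies at chr11:63128982-63159547 on the plus strand, Mag at chr7:30899176-30914873 on the minus strand and Prx at chr7:27499324-27520214 on the plus strand. Sox10 lies at chr15:79154908-79165240 on the minus strand, S100b at chr10:76253853-76261159 on the plus strand and Ngfr at chr11:95568818-95587735 on the minus strand. An exon of Prx overlaps the antisense gene Gm15541, and since the strand setting of the counting is not given in the sources used here, reads of these genes cannot be told apart. Promoter sequences were matched by symbol for 5 of the 8 genes (Mag, Prx, Pmp22, S100b and Ngfr).

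The 250 bases before an annotated start are shown for 3 myelin genes that fell together and for S100b, the gene that rose. They are from RefSeq on GRCm38.p6, written 5′ to 3′ on the strand of the gene, for Mag chr7:30914923-30915172, for Prx chr7:27499074-27499323, for Pmp22 chr11:63128732-63128981 and for S100b chr10:76253586-76253835. Mag and Pmp22 have other annotated starts, whose windows are not printed. Capitals mark the match to a motif.
Mag: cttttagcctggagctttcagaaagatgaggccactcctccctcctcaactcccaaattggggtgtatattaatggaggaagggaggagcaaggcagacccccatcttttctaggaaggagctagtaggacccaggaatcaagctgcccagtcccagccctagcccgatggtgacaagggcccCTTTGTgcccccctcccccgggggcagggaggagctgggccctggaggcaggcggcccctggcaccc
Prx: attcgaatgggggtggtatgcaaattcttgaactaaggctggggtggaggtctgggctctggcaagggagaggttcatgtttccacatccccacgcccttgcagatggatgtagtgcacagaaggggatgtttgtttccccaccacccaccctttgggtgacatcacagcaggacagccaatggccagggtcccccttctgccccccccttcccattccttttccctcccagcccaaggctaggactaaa
Pmp22: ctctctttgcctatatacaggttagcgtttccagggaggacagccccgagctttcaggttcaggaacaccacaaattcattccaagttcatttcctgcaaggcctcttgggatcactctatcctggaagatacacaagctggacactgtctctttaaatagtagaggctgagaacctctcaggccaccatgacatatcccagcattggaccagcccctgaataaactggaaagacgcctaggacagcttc
S100b: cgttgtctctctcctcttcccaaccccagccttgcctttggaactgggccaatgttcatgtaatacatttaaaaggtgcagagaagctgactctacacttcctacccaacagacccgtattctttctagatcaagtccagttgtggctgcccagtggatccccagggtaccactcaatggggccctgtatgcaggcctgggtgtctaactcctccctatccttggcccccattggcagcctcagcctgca
Both strands were searched for ACAAAG and ACAAT, core forms of the site that SOX factors bind, and for GCGTGGGCG, the site of EGR factors. The Mag window held 1 match, ACAAAG on the opposite strand (CTTTGT as printed), 67 bases before the start, and the other windows printed held none. ACAAAG was in 16.5% of 32817 promoter windows of the same length, ACAAT in 27.7% and GCGTGGGCG in 0.536%. A match of letters is a description of the window and not a bound site, and its absence says only that these letters are not there.

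The libraries held 36706513 to 40655764 counts. The tissue is labelled as skin, and basal keratinocyte markers summed to 2930 to 7935 CPM (counts scaled to the depth of the library) in all libraries. Erbb3 and Cdh19, which Schwann cells make, were read in every one, at no fewer than 936 and 120 counts. Erbb3 is also made in other cells, such as melanocytes, so that its reads alone do not show Schwann cells. The 4 Day0 libraries spread more than those of any later day, with a biological coefficient of variation of 26.4% against 5.70% to 10.8%. Their make-up differed as well. Summed skeletal muscle markers were 38182 and 40590 CPM in Day0 replicates 1 and 4 and 22900 and 23219 CPM in replicates 2 and 3, while fibroblast markers were 24995 and 14282 CPM in the former and 55953 and 53716 CPM in the latter. Day0 replicate 4 also had the highest FPKM (fragments per kilobase of gene, scaled to the depth of the library) of its day for each of the 8 genes but Ngfr, and results that depend on it are given with and without it. Every comparison with Day0 shares these 4 libraries.

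Most of the 8 genes were lower after wounding, and S100b was the exception. All 8 passed the filter on low counts with 18107 genes in total, and a call below is a p under 0.05 in the quasi-likelihood test of edgeR, adjusted for these genes by the method of Benjamini and Hochberg. On Day3, 7 of the 8 genes fell against Day0 and 1 rose, beside 34.8% of all genes tested that fell and 31.8% that rose. The median log2 change was -1.72 for the 8 genes and -0.03 for all genes tested. On Day5 the counts were again 7 lower and 1 higher, with 30.6% and 29.0% of all genes, and on Day7 again 7 and 1, with 24.8% and 25.6%. On Day10, 6 fell and 1 rose (26.9% and 23.5% of all genes), on Day12 7 fell and 0 rose (25.6% and 21.7%), and on Day14 6 fell and 1 rose (34.5% and 28.2%). The median log2 change of the 8 genes went from -1.59 on Day5 and -1.48 on Day7 to -0.86 on Day10, -0.86 on Day12 and -0.89 on Day14. Markers of other cells moved on the same days. All 8 skeletal muscle markers fell on Day3 (median log2 change -2.53, from 22900 to 40590 CPM in sum on Day0 to 4847 to 6217 CPM) and all 8 were lower than on Day0 on each later day as well, while all 6 neutrophil markers (median 7.48) and all 7 macrophage markers (median 0.97) rose on Day3. On Day14, 5 of the 6 neutrophil and all 7 macrophage markers were lower than on Day0. The part of this make-up in the changes of the 8 genes was not tested. S100b was the gene that rose on Day3, Day5, Day7, Day10 and Day14, and it fell on Day12. The study used DESeq2, and its limits are applied below to the edgeR fold changes and unadjusted P values of the present fit. By the limits in the study's methods, a log2 change over 1.5 and an unadjusted P under 0.05, 5 of the 8 genes fell on Day3 (12.4% of all genes), 5 on Day5 (8.31%), 4 on Day7 (4.74%), 2 on Day10 (5.14%), 0 on Day12 (3.51%) and 1 on Day14 (8.83%), and 0 rose on Day3 (6.50% of all genes), Day5 (5.61%), Day7 (4.66%), Day10 (4.33%), Day12 (3.89%) or Day14 (5.15%). The libraries of 7 genes lay wholly under those of Day0 on Day3, beside 28.6% of all genes, and so did those of 7 on Day5 (23.2%), 7 on Day7 (19.3%), 6 on Day10 (21.9%), 7 on Day12 (20.2%) and 5 on Day14 (27.3%). They lay wholly above for 0 genes on Day3 (28.2%) and Day12 (18.6%) and for 1, S100b, on Day5 (23.0%), Day7 (19.9%), Day10 (19.5%) and Day14 (23.4%).

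**Figure D1:**
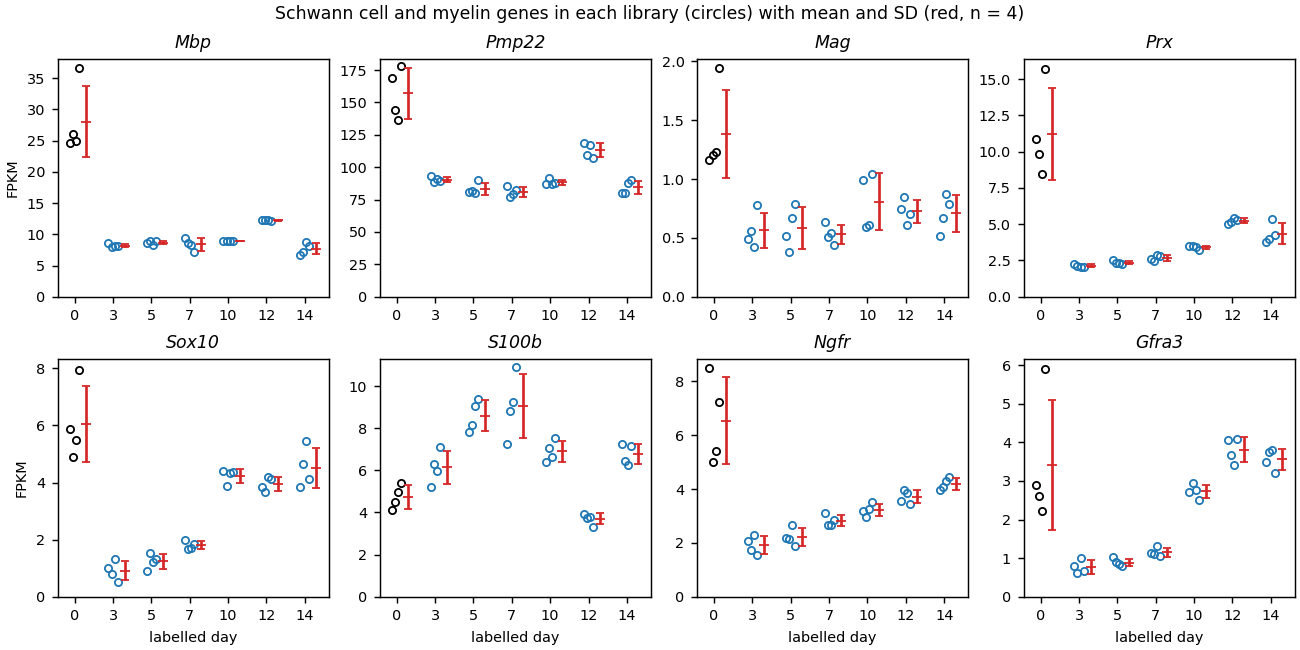
Level of each of the 8 genes in FPKM (vertical axis, from 0) by labelled day (horizontal axis), with each library as a circle and the mean and SD of 4 libraries in red. Mbp, Pmp22, Mag, Prx and Ngfr stayed under every Day0 library on all later days, Sox10 and Gfra3 rose between Day7 and Day10, and S100b lay above its mean Day0 level of 4.74 FPKM on all later days but Day12.

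**Figure D2:**
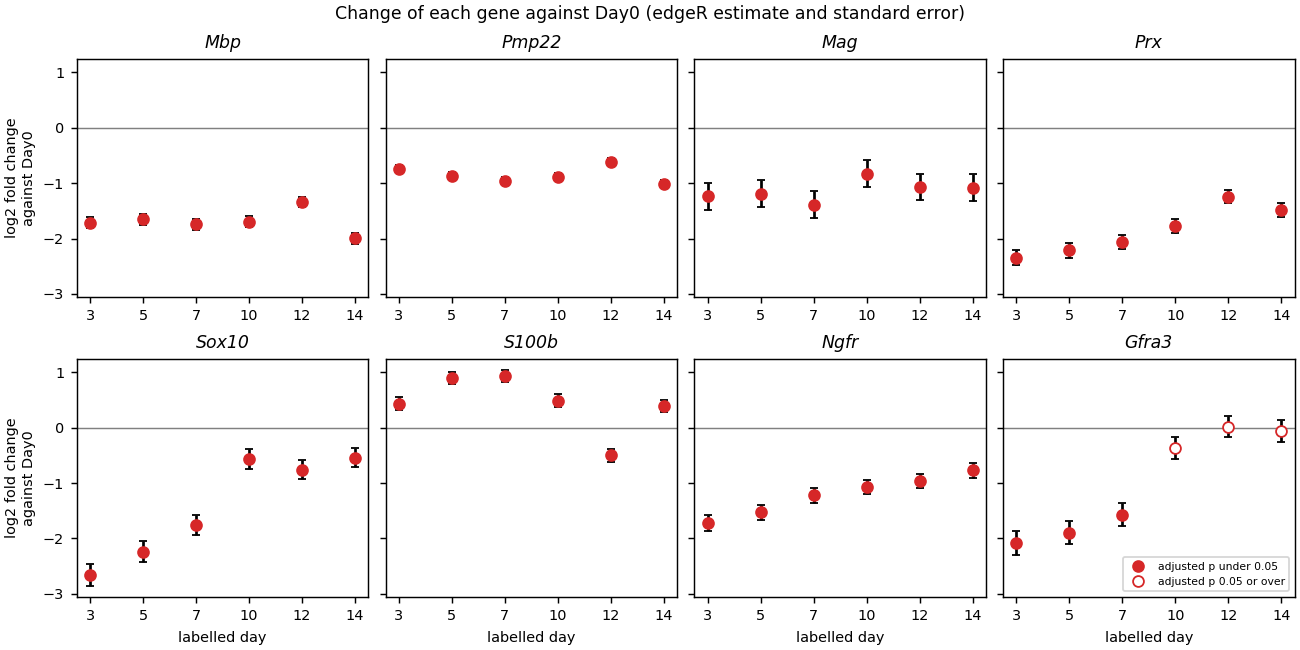
Log2 fold change against Day0 from edgeR (vertical axis) by labelled day (horizontal axis) for each of the 8 genes, with bars of 1 standard error and filled points where the adjusted p was under 0.05. Open points are seen for Gfra3 alone, on Day10, Day12 and Day14.

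Mbp, which encodes the protein that presses the inner faces of the myelin membrane together, fell early and did not recover. It was at 24.7, 26.0, 24.9 and 36.6 FPKM in the Day0 libraries and at 8.58, 8.05, 8.13 and 8.06 FPKM on Day3. The Day3 values lay close together and all were under a lowest Day0 value that was much higher. The log2 change was -1.72 (SE 0.10, 3.29-fold lower, edgeR adjusted p = 1.43e-14). The mean then stayed between 8.20 ± 0.25 FPKM on Day3 and 8.96 ± 0.04 FPKM on Day10 (SD, n = 4), rose to 12.2 ± 0.10 FPKM on Day12 and was 7.68 ± 0.88 FPKM on Day14, when the log2 change was -1.99 (SE 0.10, edgeR adjusted p = 2.69e-15). The Day12 libraries, at 12.28, 12.26, 12.28 and 12.07 FPKM, lay above all those of Day10 and of Day14. In contrasts of adjoining days chosen after the levels had been seen, Mbp was higher on Day12 than on Day10 by 0.36 on the log2 scale (edgeR adjusted p = 0.00424) and lower on Day14 than on Day12, at -0.65 (edgeR adjusted p = 5.16e-06). Mbp is also transcribed outside glia, in the forms from its upstream starts, and counts per gene do not separate these. Without Day0 replicate 4 the log2 change on Day3 was -1.51, and it stayed past the threshold on every day.

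Pmp22, which encodes a tight-packed membrane protein of myelin that is also made by fibroblasts and epithelia, fell the least of the 4 myelin genes on Day3. Its Day0 levels were 168.8, 144.4, 136.5 and 178.4 FPKM, and those of Day3 were 92.9, 88.6, 90.7 and 89.2 FPKM. No later library reached the lowest of Day0. The log2 change was -0.74 on Day3 (SE 0.07, 1.67-fold lower, edgeR adjusted p = 2.57e-10) and -1.02 on Day14 (SE 0.07, edgeR adjusted p = 7.95e-13). Like Mbp, it stood higher on Day12, at 113.0 ± 5.44 FPKM (SD, n = 4), than on Day10 at 88.4 ± 2.12 FPKM or on Day14 at 84.5 ± 4.99 FPKM. The step from Day10 to Day12 was 0.27 on the log2 scale (edgeR adjusted p = 0.00278) and that from Day12 to Day14 was -0.40 (edgeR adjusted p = 2.90e-05). Of 6 fibroblast markers, 4 fell and 1 rose on Day3 against Day0 (median log2 change -0.57, beside 34.8% and 31.8% of all genes) and all 6 fell on Day14 (median -1.20, beside 34.5%). Their sum was 14282 to 55953 CPM on Day0, 21458 to 23554 CPM on Day3, 52424 to 59638 CPM on Day10 and 15973 to 19138 CPM on Day14. Of 5 basal keratinocyte markers, 4 fell and 0 rose on Day3 (median -1.02, beside 34.8% and 31.8% of all genes), and 2 fell and 1 rose on Day14 (median -0.05), near the 34.5% and 28.2% of all genes. The part of these cells in the level of Pmp22 was not tested.

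Prx encodes periaxin, a scaffold protein of the Schwann cell that lies on the outer side of the sheath, and it fell more than the other 3 myelin genes on Day3. It was at 10.9, 9.82, 8.45 and 15.7 FPKM on Day0 and at 2.27, 2.10, 2.05 and 2.06 FPKM on Day3, a log2 change of -2.35 (SE 0.13, 5.08-fold lower, edgeR adjusted p = 6.10e-15). Its mean was higher on each following day up to Day12, at 2.34 ± 0.11 FPKM on Day5, 2.69 ± 0.20 FPKM on Day7, 3.40 ± 0.13 FPKM on Day10 and 5.24 ± 0.18 FPKM on Day12 (SD, n = 4). The libraries of Day7, Day10 and Day12 did not overlap with each other, whereas 1 Day7 library at 2.46 FPKM was under the highest of Day5 at 2.51 FPKM. On Day14 it was at 3.81, 4.00, 5.39 and 4.22 FPKM, which overlapped with Day12, and the log2 change from Day0 was -1.49 (SE 0.13, edgeR adjusted p = 5.48e-11). Without Day0 replicate 4 it was -2.09 on Day3 and -1.21 on Day14. The step from Day7 to Day10 was not called (0.29, SE 0.13, edgeR adjusted p = 0.0860), and the rise from Day10 to Day12 was 0.53 on the log2 scale (edgeR adjusted p = 0.00118).

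Mag encodes an adhesion protein on the innermost turn of the sheath, where the glial membrane faces the axon. It had the fewest reads of the 8 genes on Day0, at 123, 132, 131 and 193 counts, and 52, 59, 45 and 82 counts on Day3. In FPKM these were 1.16, 1.20, 1.23 and 1.94 on Day0 and 0.49, 0.56, 0.42 and 0.78 on Day3, with no overlap. The log2 change was -1.24 on Day3 (SE 0.24, edgeR adjusted p = 6.67e-05), -0.83 on Day10 (SE 0.24, edgeR adjusted p = 0.00468) and -1.08 on Day14 (SE 0.24, edgeR adjusted p = 0.000292). Among the days from Day3 to Day14 it alone of the 8 did not pass the joint test of any difference (edgeR adjusted p = 0.363), a test that 7 of the 8 genes and 85.1% of all genes passed.

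Sox10 fell the most of the 8 genes on Day3 and rose again between Day7 and Day10. It was at 5.87, 4.88, 5.50 and 7.95 FPKM on Day0 and at 1.02, 0.81, 1.33 and 0.51 FPKM on Day3. The highest Day3 library was far under the lowest of Day0. The log2 change was -2.66 (SE 0.19, 6.33-fold lower, edgeR adjusted p = 1.79e-12), then -2.24 on Day5 (SE 0.19, edgeR adjusted p = 5.02e-11) and -1.75 on Day7 (SE 0.18, edgeR adjusted p = 5.61e-09). On Day7 the libraries were at 1.98, 1.68, 1.70 and 1.84 FPKM, and on Day10 they were at 4.39, 3.87, 4.34 and 4.37 FPKM. This step, without overlap, was 1.19 on the log2 scale (SE 0.18, 2.28-fold higher, edgeR adjusted p = 1.05e-05, a contrast chosen after the levels had been seen). Thereafter Sox10 was at 3.84, 3.66, 4.19 and 4.13 FPKM on Day12 and at 3.85, 4.65, 5.45 and 4.14 FPKM on Day14. Levels of Day10, Day12 and Day14 overlapped, and 1 Day14 library lay within the Day0 range. Against Day0 the log2 change was -0.57 on Day10 (SE 0.17, edgeR adjusted p = 0.00835), -0.76 on Day12 (SE 0.18, edgeR adjusted p = 0.000807) and -0.54 on Day14 (SE 0.17, edgeR adjusted p = 0.00840). Without Day0 replicate 4 these calls were lost on Day10 (-0.40, edgeR adjusted p = 0.0502) and on Day14 (-0.31, edgeR adjusted p = 0.117) and kept on Day12 (-0.58, edgeR adjusted p = 0.00625).

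Sox10 is also made by melanocytes, whose markers moved on some of the same days. Summed over 8 markers they were at 72.0 to 132.7 CPM on Day0, 26.3 to 30.5 CPM on Day3, 71.8 to 76.4 CPM on Day7, 176.6 to 199.2 CPM on Day10, 376.9 to 463.4 CPM on Day12 and 754.4 to 919.8 CPM on Day14. All 8 fell on Day3 against Day0, with Oca2 at 0 counts in each Day3 library, and 6 of 8 rose from Day7 to Day10, beside 14.3% of all genes tested that rose. From Day10 to Day12 all 8 rose, beside 18.7% of all genes, while the log2 change of Sox10 was -0.19 (SE 0.18, edgeR adjusted p = 0.418). From Day12 to Day14, 7 of the 8 rose again, beside 19.9% of all genes, while the log2 change of Sox10 was 0.21 (SE 0.18, edgeR adjusted p = 0.337). Their part in the level of Sox10 was not tested. Skeletal muscle markers, all 8, also rose from Day7 (5525 to 5919 CPM) to Day10 (10748 to 13759 CPM).

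Ngfr encodes the low-affinity neurotrophin receptor p75, which immature and repair Schwann cells carry and which is also made by hair follicle and perineurial cells. It was at 8.48, 5.02, 5.43 and 7.25 FPKM on Day0 and at 2.07, 1.74, 2.29 and 1.54 FPKM on Day3, with no overlap (log2 change -1.72, SE 0.14, 3.29-fold lower, edgeR adjusted p = 1.02e-11). The mean was higher on each following day, at 2.21 ± 0.33 FPKM on Day5, 2.82 ± 0.20 FPKM on Day7, 3.23 ± 0.22 FPKM on Day10, 3.71 ± 0.24 FPKM on Day12 and 4.19 ± 0.22 FPKM on Day14 (SD, n = 4). In FPKM the libraries of neighbouring days overlapped at every step except from Day5 to Day7, where the lowest Day7 library at 2.67 FPKM was just above the highest of Day5 at 2.66 FPKM. In log2 CPM these days overlapped, and those of Day12 and Day14 did not, with a step of 0.19 that was not called (SE 0.13, edgeR adjusted p = 0.242). Over the whole span from Day3 to Day14, however, it rose by 0.95 on the log2 scale (SE 0.14, edgeR adjusted p = 6.20e-07). On Day14 it was still 1.70-fold lower than on Day0 (log2 change -0.77, SE 0.13, edgeR adjusted p = 1.10e-05), and the highest Day14 library, at 4.43 FPKM, was under the lowest of Day0. Of the 9 hair follicle markers, all fell on Day3 against Day0 (median log2 change -6.66, beside 34.8% of all genes that fell), and all were higher on Day14 than on Day3 (beside 34.2%). Of 6 perineurial markers, 5 fell and 1 rose on Day3, beside 34.8% and 31.8% of all genes. From Day3 to Day14, 1 rose (beside 34.2%) and 2 fell, near the 32.8% of all genes that fell. Their sum was 341.5 to 411.0 CPM on Day0 and 263.2 to 288.7 CPM on Day3. It does not separate perineurial cells from others that make these genes. The part of hair follicle and perineurial cells in the level of Ngfr was not tested.

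Gfra3 encodes the co-receptor that binds artemin and signals through RET, and it came back into its Day0 range. It was at 2.90, 2.61, 2.22 and 5.89 FPKM on Day0, where the spread came from replicate 4, and at 0.80, 0.62, 1.00 and 0.67 FPKM on Day3 (log2 change -2.08, SE 0.21, 4.24-fold lower, edgeR adjusted p = 1.86e-09). It stayed low on Day7, at 1.13, 1.11, 1.30 and 1.04 FPKM. On Day10 it was at 2.72, 2.93, 2.76 and 2.51 FPKM, which is within the Day0 range and above all Day7 libraries (1.20 on the log2 scale from Day7 to Day10, SE 0.21, edgeR adjusted p = 4.69e-05, chosen after the levels had been seen). The levels were 3.80 ± 0.32 FPKM on Day12 and 3.56 ± 0.27 FPKM on Day14 (SD, n = 4). Against Day0 no call was made on Day10 (log2 change -0.37, SE 0.20, edgeR adjusted p = 0.119), Day12 (0.02, SE 0.19, edgeR adjusted p = 0.946) or Day14 (-0.06, SE 0.19, edgeR adjusted p = 0.810). Without Day0 replicate 4 it was higher than on Day0 on Day12 (0.43, edgeR adjusted p = 0.0101) and on Day14 (0.42, edgeR adjusted p = 0.00929), and on Day10 the change was 0.03 (edgeR adjusted p = 0.868). Without Day0 replicate 3 it was lower on Day10 (-0.53, edgeR adjusted p = 0.0227).

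S100b ran against the other 7 genes. It was at 4.12, 4.48, 5.00 and 5.38 FPKM on Day0, at 5.19, 6.28, 5.99 and 7.11 FPKM on Day3 and at 7.26, 8.82, 9.26 and 10.9 FPKM on Day7. The lowest Day3 library overlapped with Day0, and the Day7 libraries all lay above it. The log2 change was 0.43 on Day3 (SE 0.11, edgeR adjusted p = 0.00145), 0.90 on Day5 (SE 0.11, edgeR adjusted p = 8.49e-08), 0.93 on Day7 (SE 0.11, 1.91-fold higher, edgeR adjusted p = 7.55e-08) and 0.49 on Day10 (SE 0.11, edgeR adjusted p = 0.000683). On Day12 it dropped to 3.93, 3.75, 3.79 and 3.33 FPKM, under every library of every other day, and on Day14 it was at 7.25, 6.45, 6.27 and 7.15 FPKM. Both steps, -0.99 from Day10 to Day12 (edgeR adjusted p = 6.46e-08) and 0.89 from Day12 to Day14 (edgeR adjusted p = 4.52e-07), were contrasts chosen after the levels had been seen. Against Day0 the log2 change was -0.50 on Day12 (SE 0.11, edgeR adjusted p = 0.000734) and 0.39 on Day14 (SE 0.11, edgeR adjusted p = 0.00375), and the latter lost its call in limma voom with weights by day (adjusted p = 0.0656). S100b is made by adipocytes as well as by Schwann cells. Markers of adipocytes, summed over 8 genes, were at 2707 to 3662 CPM on Day0, 5008 to 6244 CPM on Day3, 5658 to 6560 CPM on Day5, 4366 to 5006 CPM on Day7, 3830 to 4094 CPM on Day10, 2770 to 2940 CPM on Day12 and 4818 to 4909 CPM on Day14. The list went both ways early, with 3 higher and 3 lower than on Day0 on Day3 (31.8% and 34.8% of all genes) and again on Day5 (29.0% and 30.6%), near the shares of all genes. Of these Fabp4, a fatty acid carrier, rose the most and Lep, which encodes leptin, fell the most. From Day10 to Day12, 7 of the 8 fell, beside 20.7% of all genes tested, and from Day12 to Day14 all 8 rose, beside 19.9%. None of the 8 was at 0 in any day. The part of adipocytes in the level of S100b was not tested.

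**Figure D3:**
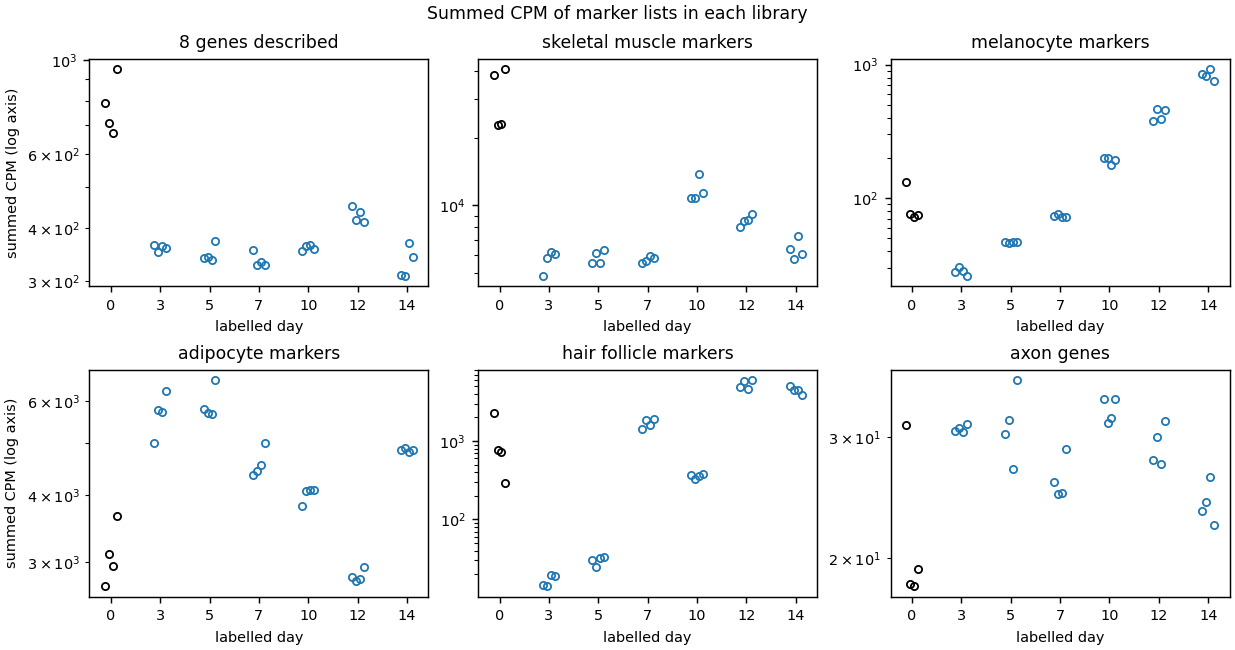
Summed CPM (log axis) of the 8 genes described, of 4 marker lists and of axon genes in each library (circles) by labelled day (horizontal axis), with Day0 in black. Skeletal muscle markers were at 22900 CPM or more in each Day0 library and at 13759 CPM or less in each later one, melanocyte markers were highest on Day14, and adipocyte markers dipped on Day12.

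Within the wound, Day14 was compared with Day3 without the Day0 levels. Of the 8 genes, 4 rose (beside 34.2% of all genes tested) and 2 fell (beside 32.8%). Sox10 rose 4.35-fold (log2 change 2.12, SE 0.19, edgeR adjusted p = 1.49e-10), Gfra3 4.07-fold (2.03, SE 0.21, edgeR adjusted p = 2.76e-09), Ngfr 1.93-fold (0.95, SE 0.14, edgeR adjusted p = 6.20e-07) and Prx 1.81-fold (0.86, SE 0.13, edgeR adjusted p = 1.30e-06). Mbp and Pmp22 were each lower on Day14, by 1.21-fold (log2 change -0.28, SE 0.10, edgeR adjusted p = 0.0150, and -0.28, SE 0.07, edgeR adjusted p = 0.000810). Both of these small changes lost their call without composition normalization (-0.10 for each, edgeR adjusted p = 0.375 and 0.189), a scaling that moved the median of all genes in this comparison from 0.04 to 0.22. The call for Mbp was also lost without Day3 replicate 1, Day14 replicate 1 or Day14 replicate 2 (edgeR adjusted p = 0.0564, 0.0688 and 0.0557). Mag (0.15, SE 0.25, edgeR adjusted p = 0.597) and S100b (-0.04, SE 0.11, edgeR adjusted p = 0.750) did not pass. By the limits in the study's methods, 2 of the 8 genes were higher (9% of all genes) and 0 lower (9.58%). Contrasts of adjoining days, chosen after the levels had been seen, called 2 of the 8 genes higher and 1 lower on Day10 against Day7 (14.3% and 18% of all genes), 3 higher and 1 lower on Day12 against Day10 (18.7% and 20.7%), and 1 higher and 2 lower on Day14 against Day12 (19.9% and 25.3%).

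The genes thus differed in course, and this was measured within each library as the level of a gene relative to Sox10 (log2 ratio of CPM). Sox10 had the largest fall of the 8 genes on Day3, so that the direction of each Day3 ratio was fixed by this choice. Those Day3 differences restate the fall of Sox10 and are no separate measure of course. The test was an exact two-sided permutation test of 4 libraries against 4, with 42 tests in all, for which the smallest p is 0.0286 and the smallest adjusted p 0.048. Relative to Sox10, Mbp was at 3.86 ± 0.14 on Day0 and 4.86 ± 0.56 on Day3 (SD, n = 4, log2 scale), a difference of 1.00 with no overlap (exact permutation, adjusted p = 0.048). On Day10 it was at 2.72 ± 0.09 and on Day14 at 2.41 ± 0.15, differences of -1.14 and -1.45 with no overlap (exact permutation, adjusted p = 0.048 for each). Prx did not pass on Day3 (0.39, exact permutation, adjusted p = 0.292) and was lower relative to Sox10 on Day10, at -1.19, and on Day14, at -0.93 (exact permutation, adjusted p = 0.048 for each). Pmp22 went from a difference of 1.96 on Day3 to -0.48 on Day14, and Mag from 1.48 to -0.53 (exact permutation, adjusted p = 0.048 for each of the 4). S100b stood higher relative to Sox10 by 3.12 on Day3 and 0.92 on Day14 (exact permutation, adjusted p = 0.048 for each). Ngfr was higher by 1.00 on Day3 and lower on Day10, at -0.50 (exact permutation, adjusted p = 0.048 for each), and did not differ past the threshold on Day14 (-0.20, exact permutation, adjusted p = 0.390), and Gfra3 was higher by 0.73 on Day3 (exact permutation, adjusted p = 0.048) and by 0.85 on Day12 (exact permutation, adjusted p = 0.048). Several of these differences depend on the reference gene. With Erbb3, the neuregulin receptor of Schwann cells, in place of Sox10, Mbp on Day3 was at -0.48, Prx at -1.09 and Ngfr at -0.48, each now lower than on Day0 with no overlap (exact permutation, unadjusted p = 0.0286 for each). Gfra3 on Day3 was at -0.75 (exact permutation, unadjusted p = 0.0571) and Mag at -0.0017, and Gfra3 on Day12 was at 0.28 and no longer passed (exact permutation, unadjusted p = 0.286). Ngfr on Day14 was then at -0.37 with no overlap (exact permutation, unadjusted p = 0.0286). By contrast, the lower level of Mbp and Prx on Day10 and Day14 and the higher level of S100b on Day3 and Day14 kept their direction. Sox10 and Erbb3 are both made in melanocytes, whose markers rose late as given above. Erbb3 is not particular to Schwann cells, and the part of other cells in the ratios to Erbb3 was not tested.

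**Figure D4:**
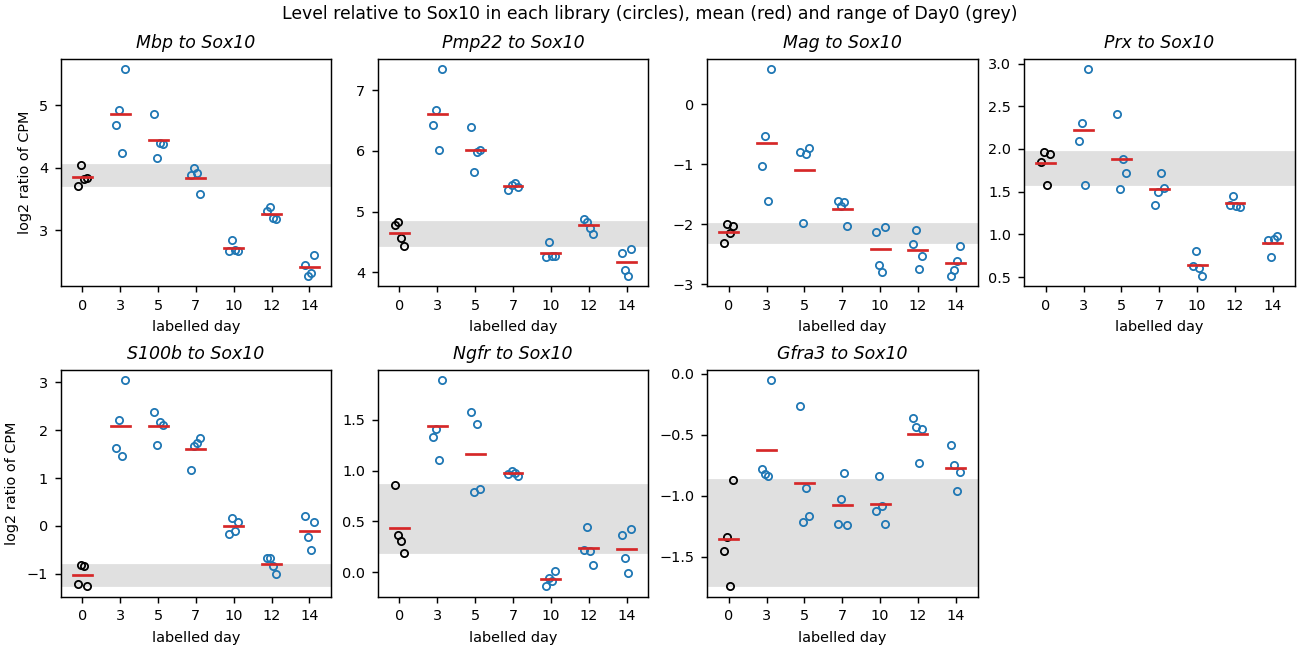
Log2 ratio of the CPM of each of 7 genes to that of Sox10 (vertical axis) in each library (circles) by labelled day (horizontal axis), with the mean of 4 libraries in red and the range of Day0 shaded. For Mbp and Prx the libraries of Day10, Day12 and Day14 lay under the Day0 range.

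Most other genes of the myelin sheath were also lower than on Day0. Of 17 listed, 16 were tested, and 14 fell and 1 rose on Day3 (median log2 change -1.96, against -0.03 for all genes tested, of which 34.8% fell and 31.8% rose), 12 fell and 0 rose on Day10 (median -1.25, beside 26.9% and 23.5% of all genes), and 15 fell and 1 rose on Day14 (median -1.49, beside 34.5% and 28.2%). Cnp, which encodes an enzyme of the uncompacted sheath, changed by -0.77 on Day3 (SE 0.07, edgeR adjusted p = 3.09e-10) and by -1.50 on Day14 (SE 0.07, edgeR adjusted p = 1.64e-15) on the log2 scale. Ncmap, a protein of non-compact myelin, fell the most on Day3 (-2.81, SE 0.20, edgeR adjusted p = 1.71e-12), and Ugt8a, which makes the main lipid of myelin, fell the most on Day14 (-2.30, SE 0.22, edgeR adjusted p = 4.36e-10). The genes that rose were Nfasc, an adhesion gene that neurons also use, on Day3 (0.56, SE 0.14, edgeR adjusted p = 0.00118), and Cd9, a tetraspanin of many cell types, on Day14 (0.15, SE 0.06, edgeR adjusted p = 0.0412). The call for Cd9 was lost on the libraries of these days alone with edgeR (adjusted p = 0.0563) and DESeq2 (0.0829), in limma voom (0.0661) and without Day14 replicate 1 or 3 (edgeR adjusted p = 0.116 and 0.0711).

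Of 12 regulators of the Schwann cell lineage tested, 8 fell and 4 rose on Day3 (median log2 change -1.11, beside 34.8% of all genes that fell and 31.8% that rose), so that the share that rose was near that of all genes. On Day14, 2 fell and 6 rose (median 0.21, against -0.06 for all genes tested, of which 34.5% fell and 28.2% rose). Egr2, the transcription factor that switches on myelin genes and that is also induced in other cells by wounding, changed by -1.17 on Day3 (SE 0.09, edgeR adjusted p = 2.35e-12) and by 0.47 on Day14 (SE 0.08, edgeR adjusted p = 2.13e-05) on the log2 scale. Pou3f1, which acts before Egr2 in Schwann cells and is also made by keratinocytes, changed by -1.36 on Day3 (SE 0.11, edgeR adjusted p = 3.00e-11) and by 0.79 on Day14 (SE 0.11, edgeR adjusted p = 3.65e-07). Both were therefore above Day0 on Day14 when Mbp, Pmp22, Mag and Prx were below it. Sox2, a gene of immature Schwann cells and of hair follicle papillae, fell by 3.45 on Day3 (log2, SE 0.53, edgeR adjusted p = 2.27e-06), with 3 to 6 counts a library. Jun, the driver of the repair state and an early gene in most cells, rose by 0.44 on Day3 (SE 0.06, edgeR adjusted p = 1.30e-06) and was at -0.11 on Day14 (SE 0.06, edgeR adjusted p = 0.153). The largest decreases were those of Pax3 on Day3 (-3.58, SE 0.26, at 3 to 6 counts a library, edgeR adjusted p = 1.79e-12) and Foxd3 on Day14 (-1.44, SE 0.27, edgeR adjusted p = 4.01e-05), both genes of the neural crest that melanocytes use too, and the largest increases those of Zeb2 on Day3 (0.68, SE 0.14, edgeR adjusted p = 9.07e-05) and Id4 on Day14 (1.51, SE 0.08, edgeR adjusted p = 1.65e-14). On Day14 against Day0, 7 of the 8 melanocyte markers (median log2 change 4.20) and all 9 hair follicle markers (median 2.27) were higher, and their part in the levels of these regulators was not tested.

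Of 14 genes of non-myelinating and immature Schwann cells, 11 fell and 1 rose on Day3 (median log2 change -1.22, beside 34.8% and 31.8% of all genes), and 9 fell and 3 rose on Day14 (median -0.65, beside 34.5% and 28.2%). Cdh19, a cadherin of the Schwann cell precursor, changed by -2.58 on Day3 (SE 0.16, edgeR adjusted p = 6.34e-14) and by -1.31 on Day14 (SE 0.15, edgeR adjusted p = 1.78e-08) on the log2 scale. Scn7a, a sodium channel of non-myelinating Schwann cells, changed less early and more late, by -0.37 on Day3 (SE 0.11, edgeR adjusted p = 0.00302, and 0.0505 in DESeq2 on the libraries of these days) and -1.32 on Day14 (SE 0.11, edgeR adjusted p = 3.13e-11). Erbb3 changed by -1.22 on Day3 (SE 0.09, edgeR adjusted p = 6.43e-12) and -0.38 on Day14 (SE 0.09, edgeR adjusted p = 0.000858). Ncam1, an adhesion molecule of non-myelinating Schwann cells and muscle, changed by -1.07 on Day3 (SE 0.18, edgeR adjusted p = 6.58e-06), stood higher than on Day0 on Day10 (1.62, SE 0.17, edgeR adjusted p = 7.64e-09) and did not pass on Day14 (0.23, SE 0.17, edgeR adjusted p = 0.250). Without Day0 replicate 1 the latter change was 0.52 (edgeR adjusted p = 0.00549) and without Day0 replicate 4 it was 0.45 (edgeR adjusted p = 0.0237), and it also passed in limma on FPKM (adjusted p = 0.0332 to 0.0397). At the ends of the list were Sostdc1 (-2.82 on Day3, SE 0.11, edgeR adjusted p = 4.65e-18), Kcna1 (-1.68 on Day14, SE 0.13, edgeR adjusted p = 1.86e-11), Cdh2 (0.61 on Day3, SE 0.08, edgeR adjusted p = 2.80e-07) and Fabp7 (1.96 on Day14, SE 0.35, edgeR adjusted p = 2.06e-05). Sostdc1 also had the largest rise of the list from Day3 to Day14. Its log2 change from Day0 on Day14 was 0.56 to 0.73 with 1 library left out. Hair follicle markers had medians of -6.66 on Day3 and 2.27 on Day14, and their part in the level of Sostdc1 was not tested.

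Of 14 genes of the repair state, 5 were higher and 7 lower on Day3 (31.8% and 34.8% of all genes), and 5 were higher and 6 lower on Day14 (28.2% and 34.5%). The shares that rose were near those of all genes. Among genes with at least 10 counts in every library, 3 of the list were higher on Day14. The gene with the largest change was Shh, a signal that repair Schwann cells and the hair follicle both make. It was at 5 to 42 counts a library on Day0 and fell to 1 to 3 counts on Day3 (edgeR adjusted p = 4.34e-05), which is too few for a fold. On Day14 it was at 592 to 645 counts, a log2 change of 4.95 from Day0 (SE 0.29, edgeR adjusted p = 4.89e-14), and of 5.86 without Day0 replicate 1. Hair follicle markers, summed over 9 genes, were at 294.8 to 2240 CPM on Day0, 14.0 to 19.6 CPM on Day3 and 3805 to 5086 CPM on Day14. All 9 were higher on Day14 than on Day0 (median log2 change 2.27, beside 28.2% of all genes that rose), and their part in the change of Shh was not tested. Gdnf, which supports motor axons, changed by -0.60 on Day3 (SE 0.21, edgeR adjusted p = 0.0142) and -1.74 on Day14 (SE 0.22, edgeR adjusted p = 1.17e-07), and without Day0 replicate 1 its change on Day3 was -0.27 (edgeR adjusted p = 0.229), with the call also lost without Day0 replicate 4, Day3 replicate 2 or Day3 replicate 3 (edgeR adjusted p = 0.0783, 0.0513 and 0.0650), and in limma voom (adjusted p = 0.0545) and on the libraries of these days alone with edgeR (0.0888) and DESeq2 (0.0847). Gap43, a protein of growing axons and repair cells, changed by -0.65 on Day3 (SE 0.20, edgeR adjusted p = 0.00651) and -1.28 on Day14 (SE 0.21, edgeR adjusted p = 5.95e-06). Ccl2, the chemokine that draws monocytes and that many cells of a wound make, had the largest rise on Day3 (3.13, SE 0.24, edgeR adjusted p = 6.18e-12, and 3.74 without Day0 replicate 1), and Btc, a growth factor of the EGF family, the largest decrease on Day14 (-2.79, SE 0.20, edgeR adjusted p = 2.26e-12).

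Of the signals that act on Schwann cells and sensory axons, 11 of 19 tested fell and 4 rose on Day3 (34.8% and 31.8% of all genes), and 10 fell and 5 rose on Day14 (34.5% and 28.2%). The share that rose on Day14 was near that of all genes. Artn, the ligand of Gfra3, was at 0.23 ± 0.08 FPKM on Day0 and 0.27 ± 0.13 FPKM on Day3 and did not pass (0.28, SE 0.33, edgeR adjusted p = 0.458), nor on Day14 (-0.78, SE 0.34, edgeR adjusted p = 0.0504), where it passed without Day0 replicate 1 or Day14 replicate 3 (edgeR adjusted p = 0.0429 and 0.0358) and with at least 10 counts in every library (edgeR adjusted p = 0.0398). Ret, through which Gfra3 signals, did not pass on Day3 (0.17, SE 0.10, edgeR adjusted p = 0.140, and 0.00976 without Day3 replicate 1) and rose on Day14 (0.97, SE 0.10, edgeR adjusted p = 2.84e-09). Gfra1, the co-receptor for Gdnf, rose on Day3 (1.00, SE 0.09, edgeR adjusted p = 8.60e-11) and fell on Day14 (-0.97, SE 0.09, edgeR adjusted p = 4.08e-10). Nrg1, the neuregulin that axons, keratinocytes and repair cells offer to Erbb3, had the largest rise of the list, from 12 to 63 counts on Day0 to 556 to 624 counts on Day3 (log2 change 4.28, SE 0.27, edgeR adjusted p = 9.76e-14), and was still higher on Day14 (1.91, SE 0.28, edgeR adjusted p = 1.05e-06). Without Day0 replicate 1 these changes were 4.95 and 2.61. Ntf3, a neurotrophin, fell the most on both days (-1.82, SE 0.24, edgeR adjusted p = 2.44e-07 on Day3, and -2.10, SE 0.25, edgeR adjusted p = 2.84e-08 on Day14).

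**Figure D5:**
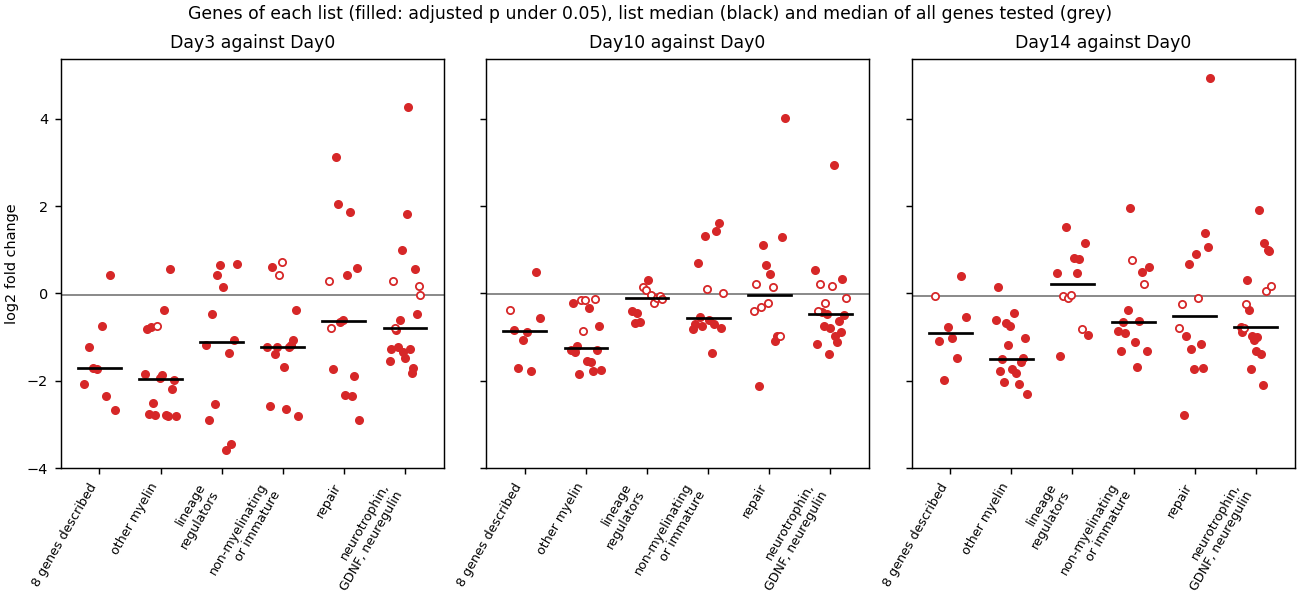
Log2 fold change against Day0 (vertical axis) of each gene of 6 lists (horizontal axis) on Day3, Day10 and Day14, filled where the edgeR adjusted p was under 0.05, with the list median in black and the median of all genes tested as a grey line. The 8 genes described and the other myelin genes had medians under the grey line in all 3 panels, and the lineage regulators had a median of 0.21 on Day14.

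Transcripts of the genes listed for axons were scarce, and their level is not a measure of the axons in the tissue. Of 10 listed genes 7 were tested, with 2 higher and 1 lower on Day3 (31.8% and 34.8% of all genes), 3 and 1 on Day5 (29.0% and 30.6%), 4 and 0 on Day10 (23.5% and 26.9%) and 1 and 3 on Day14 (28.2% and 34.5%). Among genes with at least 10 counts in every library, 2 of the list were lower on Day3. Summed over the 10 genes, the list was at 18.2 to 36.3 CPM in all libraries. Nefl and Nefm, which encode neurofilaments, had 0 to 4 and 0 to 7 counts a library on Day0, and Scn10a, the channel of pain fibers, had 0 to 2. Tubb3, the neuronal tubulin that other growing cells also use, rose by 1.68 on Day3 (SE 0.28, edgeR adjusted p = 7.77e-06) and by 1.45 on Day14 (SE 0.28, edgeR adjusted p = 6.07e-05), and by 2.48 and 2.28 without Day0 replicate 1. Of 6 markers of the perineurium, the sheath around nerve bundles, 5 fell and 1 rose on Day3 (34.8% and 31.8% of all genes), and 5 fell and 0 rose on Day14 (34.5% and 28.2%). Sfrp5 is among these markers, and its pattern was the most like that of Mbp.

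For each of the 8 genes, the 3 most similar genes were taken by Pearson's r of log2 CPM over all 28 libraries among 14684 genes, as a description, since the libraries share their days and make-up. For Mbp these were Sfrp5, Clip4 and Gatm (each 0.96), for Pmp22 Prkcq (0.95), Arrdc3 and Fxyd6 (0.94), and those for Prx included Ybx3 and Ttll7 (each 0.96). For Sox10 they were Paqr4, Efnb2 and Tmem159 (each 0.96), and for Gfra3 Tfap2e (0.97), Acad9 and Dmd (0.96). For S100b they were Rbpms2, Etfrf1 and Cidea (each 0.94), the last a lipid droplet gene of adipocytes. For Ngfr they were Sult5a1, Wnk2 and Pm20d2 (0.94), and for Mag, whose counts were low, Lbx1, Slc22a4 and Sar1b (0.84). Among the 8 genes, r was highest for Mbp with Pmp22 (0.96), then for Sox10 with Gfra3 and Prx with Ngfr (each 0.92), and it was negative for S100b with each of the other 7.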

How the data were processed

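Total RNA of 28 wound site samples, 4 per labelled day, was sequenced. The authors deposited raw counts per gene symbol, and FPKM values in a table of equal rows and columns. The submitters' processing notes name mm10, fastp and R 3.2.0, without a role. Aligner, counter, annotation and strandedness are not given in the sources used here. Column names equal sample titles, and all columns were used. The members and gene lists were chosen with earlier results of these data known.

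Counts were fitted in R 4.3.3 with edgeR 4.0.16 by its two-sided quasi-likelihood test (glmQLFit, glmQLFTest), with TMM scaling, a filter by filterByExpr on day, and day as the only term across the 28 libraries, and p-values were adjusted over 18107 genes by the Benjamini-Hochberg method. CPM used TMM library sizes, with a prior count of 2 for log2 CPM. FPKM values were used as deposited, for levels. The sums of markers and the ratios to Sox10 were computed from CPM. DESeq2 1.42.0 and limma 3.58.1 served as alternatives. Scripts were tested on simulated counts. Depth was 36706513 to 40655764 counts a library.

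Named were the 8 genes, genes listed by role (Cnp, Egr2, Pou3f1, Sox2, Jun, Erbb3, Cdh19, Scn7a, Ncam1, Shh, Gdnf, Artn, Ret, Gfra1, Nrg1 and Gap43), per list the largest increase and decrease called on Day3 and Day14, and the 3 genes most like each of the 8, and some that the rule names are not reported here. Other genes named, such as Nefl, Nefm, Scn10a and Oca2, were chosen as markers or after their values were seen. Jun, Gdnf, Artn, Bdnf, Gap43 and Erbb3 stand in more than 1 list. No coordinates or sequences are given for Mbp and Gfra3.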

Additional observations from a re-analysis of the deposited data

Results flagged for a closer look

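In a group of 4 libraries, a value was set aside for a closer look when its gap to the nearest other library, over the whole range of the group, exceeded Dixon's critical value for groups of that size. Of 56 groups (8 genes on 7 days), 8 held such a library, where chance gives about 1 in 20 groups, or 2.8. Day0 replicate 4 was high for Mbp, at 8.31 log2 CPM against 7.75 to 7.82 in the others, and for Mag, at 2.44 against 1.72 to 1.78. Mbp was also high in Day10 replicate 3, at 6.26 log2 CPM against 6.21 to 6.22. Pmp22 was high in Day5 replicate 4, at 7.96 log2 CPM against 7.78 to 7.80. Prx was high in Day3 replicate 1, at 3.66 log2 CPM against 3.54 to 3.56, high in Day5 replicate 1, at 3.81 against 3.67 to 3.68, and low in Day10 replicate 4, at 4.06 against 4.17 to 4.19. Sox10 was low in Day10 replicate 2, at 3.37 log2 CPM against 3.54 to 3.58.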

How the results depend on the processing

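The number of genes among the 8 called in each direction changed with the criteria for a call. With a log2 change over 1.5 and unadjusted P under 0.05, 0 were higher on Day3, Day5, Day7, Day10 and Day14, and 4 were lower on Day7, 2 on Day10, 0 on Day12 and 1 on Day14, and 2 were higher and 0 lower on Day14 against Day3. On Day14 limma voom with weights by day called 0 higher. Against Day3, 0 were lower on Day14 without composition normalization, with upper quartile normalization and in limma on log2(FPKM + 1), log2(FPKM + 0.1) and log2(FPKM + 1) with a mean FPKM of at least 1, and the median of all genes under the first of these was 0.22. Leaving out 1 library gave 5 to 7 lower on Day10 (5 without Day0 replicate 4 and 7 without Day0 replicate 3), 0 to 1 higher on Day12, 5 to 6 lower and 1 to 2 higher on Day14 (5 and 2 without Day0 replicate 4) and 1 to 2 lower on Day14 against Day3, and moved no other count of the 8 genes called in the comparisons with Day0, on Day14 against Day3 or in the joint test from Day3 to Day14. Contrasts of adjoining days and counts over the other lists were not rerun with a library left out.

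The change of S100b on Day14 against Day3, which was never called, turned to 0.14 without composition normalization, 0.10 with upper quartile normalization, 0.0067 without a filter and 0.13, 0.15 and 0.13 in limma on FPKM, and ranged from -0.090 to 0.069 with 1 library left out. That of Gfra3 on Day14 against Day0 turned to 0.067 without composition normalization, 0.011 with edgeR on the libraries of these days, 0.059 in limma voom and 0.12, 0.16 and 0.12 in limma on FPKM. With 1 library left out, Gfra3 ranged from -0.17 to 0.42 on Day14, from -0.53 to 0.032 on Day10 and from -0.14 to 0.43 on Day12, the upper end each time without Day0 replicate 4. Jun on Day14 turned to 0.019 without composition normalization and to 0.026, 0.027 and 0.026 in limma on FPKM, and ranged from -0.14 to 0.059 with 1 library left out. Sox10 on Day14 lost its call in limma on log2(FPKM + 0.1) (-0.40, adjusted p = 0.0631). Without composition normalization the median of all genes moved from 0.04 to 0.22 on Day14 against Day3. On Day14 against Day0 it moved from -0.06 to 0.07. S100b, Gfra3 and Jun moved about as far under that setting. The sign of each also changed with this normalization kept and 1 library left out, as given above. The cause of these shifts was not tested. With Erbb3 in place of Sox10, the level relative to the reference turned to -0.48 (Day3) and -0.32 (Day5) for Mbp, -0.46 (Day12) for Pmp22, -0.0017 (Day3) and -0.28 (Day7) for Mag, -1.09 (Day3) and -0.87 (Day5) for Prx, -0.34 (Day12) for S100b, -0.48 (Day3), -0.19 (Day5) and -0.12 (Day7) for Ngfr and -0.75 (Day3), -0.46 (Day5) and -0.39 (Day7) for Gfra3.

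Libraries with the same replicate number shared only the number, as the deviations of same-numbered libraries from their day means correlated at -0.0699 to 0.0533. With the replicate block, 7 of the 8 genes were lower and 1 higher on Day3, no count of the 8 genes moved on any day, and of the other genes named Artn alone changed its call, on Day14 (edgeR adjusted p = 0.0492). With 1 library left out, the smallest exact p for a ratio to Sox10 was 0.0571, so that those runs bear on size alone. Mag, Sox10 and Gfra3 had under 200 counts in every library of Day3, which limits differences among the early days.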
